A study of Mus musculus with 6 samples.

Results

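The genes described here are 42 genes of DNA break repair and of the Fanconi anaemia pathway, chosen by symbol from the count table and read as 5 groups: homologous recombination, Fanconi, checkpoint signalling, end joining and mismatch repair. Of these, 39 had a row among the 16982 genes of the table, and all 39 were among the 13386 genes that passed the filter on low counts. Rad54b, Fanca and Pms2 were not analysed here. The group counts are therefore 16 genes of homologous recombination, 8 Fanconi genes, 7 of checkpoint signalling, 7 of end joining and 1 of mismatch repair.

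RNA-seq compared 3 wild-type (WT, Rnf20+/+) with 3 Rnf20 knockout (KO, Rnf20-/-) cultures of mouse embryonic fibroblasts (MEF) on day 3 of reprogramming towards pluripotency, which addresses what the loss of RNF20, an E3 ligase that ubiquitinates histone H2B, changes in the transcriptome of these cells. All 6 cultures were infected with retroviruses for OSKM (OCT4, SOX2, KLF4 and C-MYC) and are labelled as C57BL/6. The methods describe MEF from embryos with loxP sites around exons of Rnf20 and a tamoxifen-inducible Cre, in which 4-OH tamoxifen deletes the gene. They do not state whether the WT cultures carried Cre or received the drug, and the labels call all 6 untreated. Infected cells were moved onto mitomycin-treated feeder MEF, and it is not stated whether feeder RNA was kept out of the libraries. The labels do not say whether replicates came from separate embryos, so p-values measure the spread between these samples, which may be technical among WT. In KO the Y-linked genes given with the libraries show that replicate 2 was not a technical repeat of replicates 1 and 3.

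Double-strand breaks are rejoined either by end joining, in which the Ku heterodimer and DNA-PK hold the ends for ligation, or by homologous recombination, in which the ends are cut back and BRCA2 and its partners prepare them to copy the sister chromatid. The Fanconi proteins recognise DNA crosslinks at stalled forks, where a core complex attaches ubiquitin to the FANCD2 and FANCI pair and so recruits nucleases and recombination proteins. ATM and ATR signal breaks and stalled forks to the kinases CHEK2 and CHEK1, and the recombination and Fanconi genes are mostly transcribed in cells that replicate their DNA.

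The promoters of these genes were read first, because many genes of replication and repair carry sites of the E2F type. RefSeq promoters (GRCm38.p6, 250 bases before to 50 after the start) were matched by symbol to 30 of the 39 genes, and the other 9 were Xrcc2, Nbn, Rad50, Rbbp8, Rad51d, Prkdc, Rif1, Exo1 and Fancd2. The words TTTCCCGC, TTTCGCGC, TTTGCCGC and TTTGGCGC, searched on both strands, were found in 10 of the 30 (33.3%), against 4.04% of the 12490 genes of the count table with a promoter entry and 2.60% of all 27025 genes with one. Holders were Bard1, Brca2, Rad51c, Fancg, Clspn, Chek2, Mdc1, Topbp1, Xrcc6 and Msh6. The base composition of the promoters was not matched, and a match is a description of letters only. Stretches before the RefSeq start site are shown for 6 of these genes, which were all called lower in KO and in which the word lies wholly before that start. Capitals mark the word or its reverse complement, and each stretch is written 5′ to 3′ on the strand of its gene.
Bard1 (chr1:71103144-71103211, minus strand): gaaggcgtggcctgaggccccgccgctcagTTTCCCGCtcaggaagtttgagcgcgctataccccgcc
Brca2 (chr5:150522423-150522490, plus strand): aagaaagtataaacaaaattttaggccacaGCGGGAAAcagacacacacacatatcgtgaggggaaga
Topbp1 (chr9:103305168-103305235, plus strand): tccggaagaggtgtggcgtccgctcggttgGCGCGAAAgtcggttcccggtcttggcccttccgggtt
Chek2 (chr5:110839801-110839868, plus strand): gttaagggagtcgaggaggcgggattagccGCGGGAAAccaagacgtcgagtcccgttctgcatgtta
Mdc1 (chr17:35841452-35841497, plus strand): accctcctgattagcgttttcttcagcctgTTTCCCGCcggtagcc
Xrcc6 (chr15:82016293-82016360, plus strand): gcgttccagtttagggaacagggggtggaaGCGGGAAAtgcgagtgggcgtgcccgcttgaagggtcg
In Bard1 the word begins 209 bases before the start site and in Mdc1 16 bases before it. Among genes with a promoter entry, the word was present in 8 of the 20 called lower in KO and in 2 of the 10 that were not called.

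Other motifs were searched in the same promoters on both strands. CCAAT was present in 18 of the 30 genes (60%) and in 41.9% of the genes of the count table. It occurred in 14 of the 20 genes called lower and in 4 of the 10 others. TTTGAA, the core of the CHR element of many mitotic genes, was present in 2 of the 30, Bard1 and Rad51b, and in 15.2% of the genes of the count table.

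Libraries held 20545442 to 21746898 counts, and 3 counts equal 0.142 to 0.143 CPM (the read count relative to the TMM-scaled library size), which covers counting error only. The targeted gene Rnf20 fell from 107, 107 and 106 CPM in WT replicates 1 to 3 to 18.7, 18.5 and 16.4 CPM in KO replicates 1 to 3. KO replicate 3 stood apart from the other KO libraries, with a chi-square of 92.4 and 101 per gene against them, while KO replicates 1 and 2 differed by 8.57 and WT libraries by 6.04 to 8.91. Ddx3y, on the Y chromosome, had 0 counts in KO replicates 1 and 3 and was present in the other 4 libraries. Fibroblast markers summed to 33810, 31140 and 33780 CPM in WT and to 32610, 40760 and 22050 CPM in KO replicates 1 to 3. Of these 11 markers 2 (Pdgfra and Thy1) were lower and 0 higher at an edgeR adjusted p under 0.05, beside 16.6% and 16.4% of all genes. Of 6 pluripotency markers 4 had a row, and these summed to at most 2.33 CPM. Epithelial markers (6 of 6 above 0 counts) summed to 44.0 to 46.3 CPM in WT and to 34.7, 24.5 and 3.81 CPM in KO replicates 1 to 3, and macrophage markers (6 of 6) to 16.3 to 28.3 CPM in WT and to 21.5, 17.3 and 69.1 CPM in KO. Endothelial markers summed to at most 2.72 CPM. The part of these cells in the repair gene values was not tested.

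With the adjusted p of edgeR (quasi-likelihood test) set at 0.05, 24 of the 39 genes were lower in KO, 0 were higher and 15 were not called. Over all genes tested, 16.6% were lower and 16.4% higher. The count of 0 higher became 1 of the 39 genes with DESeq2, beside 2605 of all 13386 genes higher. The median log2 fold change of KO over WT was -0.81 in these genes, with 36 negative and 3 positive, against -0.00032 over all genes, of which 50% were negative. Of the groups, homologous recombination had 12 of 16 lower (median -1.14), Fanconi 6 of 8 (median -1.02), checkpoint signalling 4 of 7 (median -0.59) and end joining 2 of 7 (median -0.46). Leaving out WT replicate 1, 2 or 3 gave 15, 13 or 11 genes lower, beside 7.31%, 6.13% and 5.17% of all genes, and leaving out KO replicate 1, 2 or 3 gave 25, 18 or 28, beside 13.4%, 11.6% and 24.2% of all genes. In homologous recombination the count was 9, 7 and 5 without WT replicate 1, 2 and 3 and 9 without KO replicate 2. In the Fanconi group it was 4 and in checkpoint signalling 2 without any 1 of the WT replicates. In end joining it was 0 without any 1 of the WT replicates or KO replicate 2, and 4 without KO replicate 3.

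**Figure D1:**
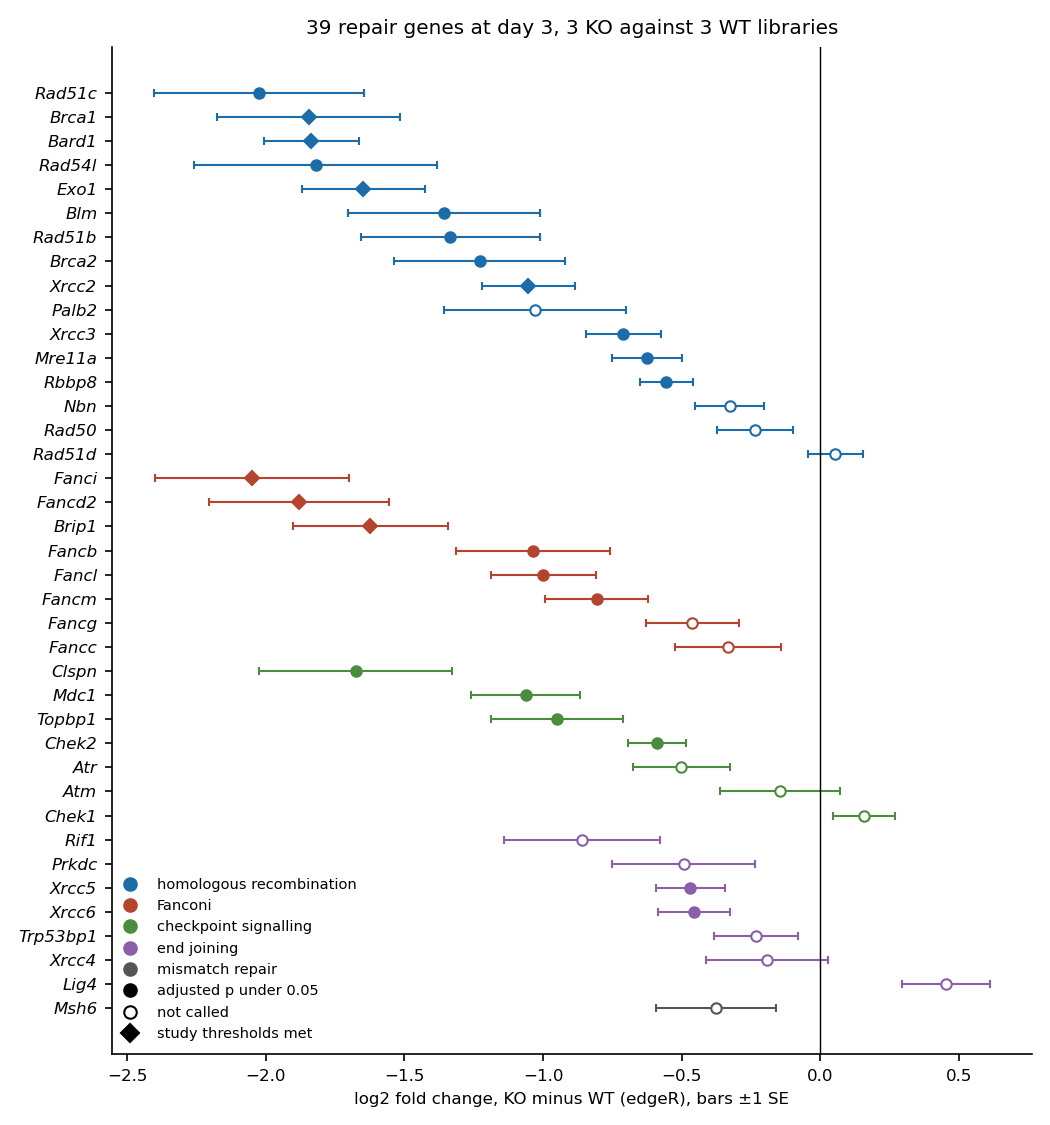
Log2 fold change of KO over WT for each of the 39 genes, by group, with bars of 1 standard error (edgeR, 3 libraries a genotype). Filled symbols are the 24 genes called lower at an adjusted p under 0.05, diamonds the 7 that pass the thresholds of the study, and 3 open symbols lie right of 0 (Lig4, Chek1 and Rad51d).

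In 32 of the 39 genes all 3 KO libraries lay below all 3 WT libraries, in 0 they lay above, and in 7 the genotypes overlapped. Over all genes tested, 28.2% were separated downwards and 26.6% upwards. KO replicate 3 lay below KO replicates 1 and 2 in 32 genes, against 44% of all genes. By library, the median difference from the WT mean was -0.55, -0.74 and -1.10 on the log2 CPM scale in KO replicates 1, 2 and 3, and that of all genes lay within 0.016 of 0 in each. The median was thus negative in each KO library and lowest in KO replicate 3.

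**Figure D2:**
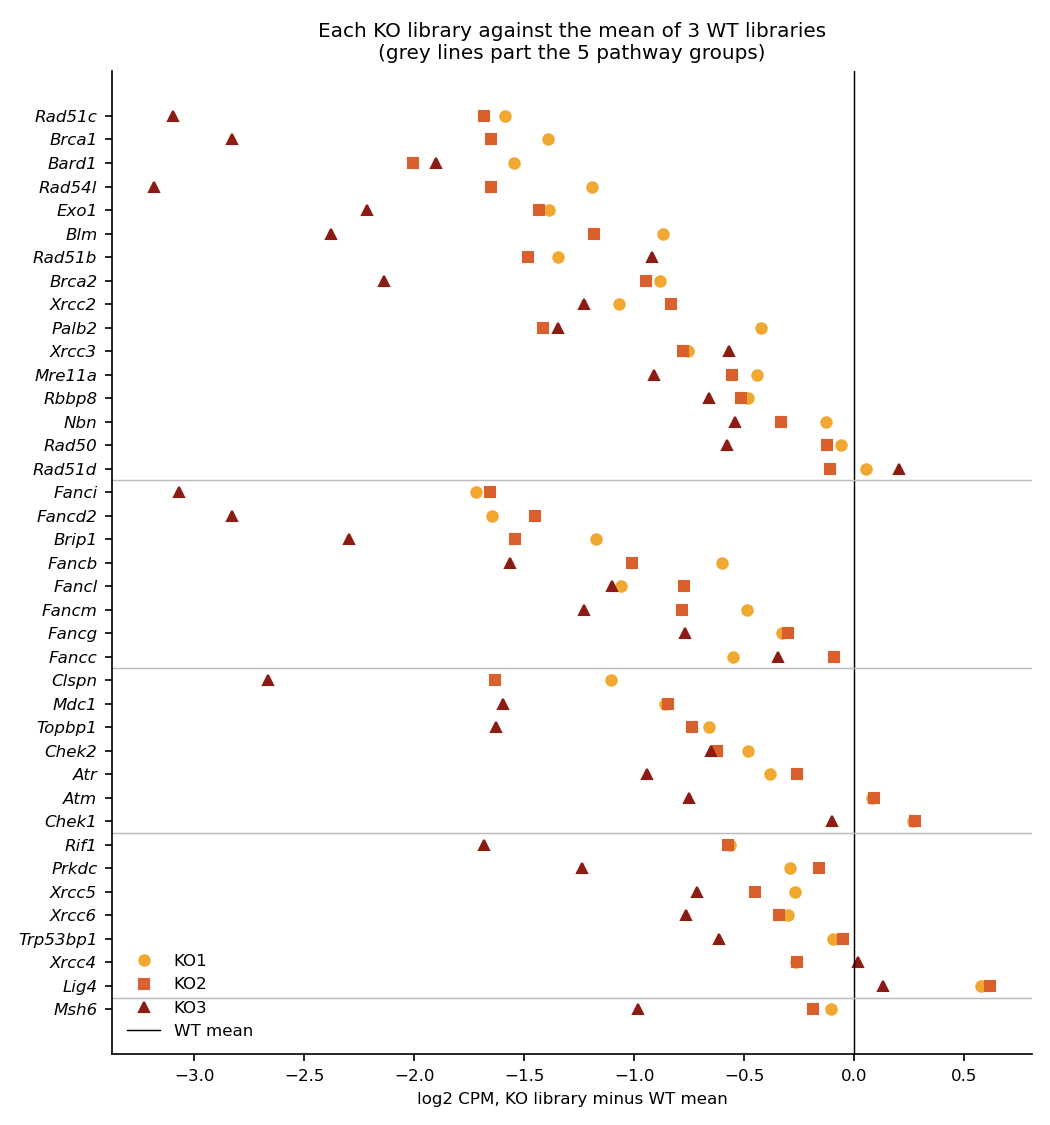
Log2 CPM of each KO library minus the mean of the 3 WT libraries (vertical line) for the 39 genes, with grey lines between the 5 groups. KO replicate 3 (triangles) lies left of KO replicates 1 and 2 in 32 genes, and the symbols of Lig4 all lie right of the line.

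The thresholds of the study are an FDR under 0.01, a fold change over 2 and an FPKM over 1, and its methods name no test. Here they were applied to the edgeR fit, with FPKM read as the mean of at least 1 genotype. The calls are therefore not the study's own. The thresholds were passed by 7 of the 39 genes, all lower in KO, against 2.08% of all genes lower and 1.5% higher. These were Brca1, Bard1, Exo1 and Xrcc2 of homologous recombination and Fanci, Fancd2 and Brip1 of the Fanconi group. The count was 0 without any 1 of the WT replicates, 1 without KO replicate 1, 0 without KO replicate 2 and 11 without KO replicate 3. The share of all genes past these thresholds was not computed in these fits. At an adjusted p under 0.05, each of the 7 was called in all 6 of these fits. The 7 were chosen in the same libraries at a stricter threshold, so this is not independent support.

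**Figure D3:**
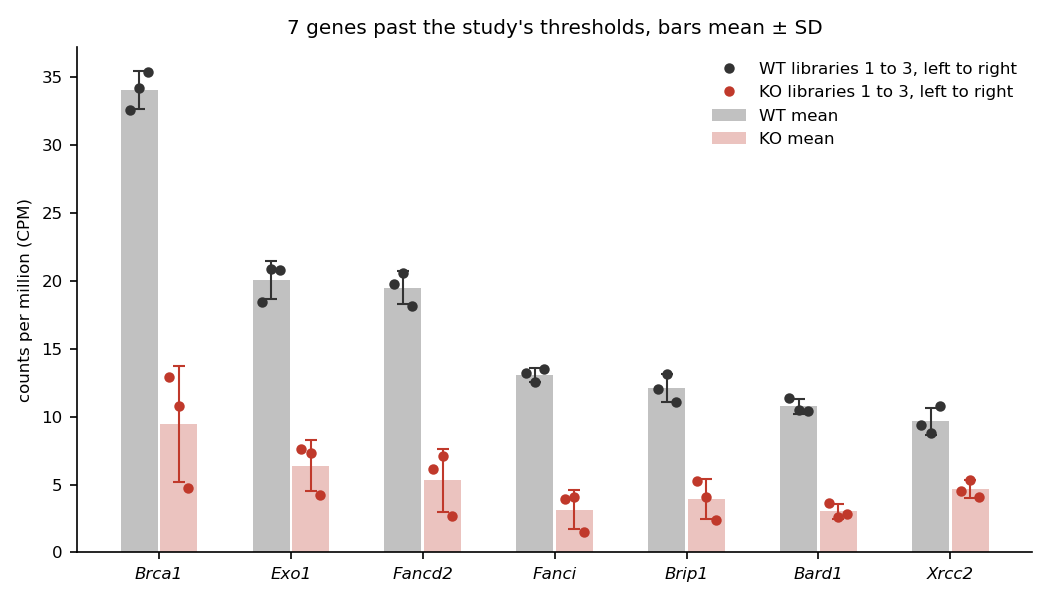
CPM of the 7 genes past the thresholds of the study, with points for libraries 1 to 3 from left to right, bars for the mean and lines for the SD (n = 3 each). In every gene the 3 KO points lie below the 3 WT points, from 34.1 to 9.48 CPM in the means of Brca1 and from 9.66 to 4.65 CPM in those of Xrcc2.

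In homologous recombination, the BRCA1 and BARD1 ligase had both subunits among the genes that fell most. Brca1 (chromosome 11, 101488764 to 101551955, minus strand of GRCm38), whose product directs the cutting back of ends, held 32.6, 34.2 and 35.4 CPM in WT and 12.9, 10.8 and 4.72 CPM in KO replicates 1 to 3. The genotypes did not overlap, and KO replicate 3 held the least. The log2 fold change was -1.85 (standard error, SE, 0.330, edgeR adjusted p = 0.00962). Bard1 (chromosome 1, 71027498 to 71103146, minus strand), the obligate partner of BRCA1, held 11.4, 10.5 and 10.4 CPM in WT and 3.63, 2.61 and 2.81 CPM in KO. Its KO libraries lay close together, with KO replicate 2 the lowest, unlike those of Brca1. The log2 fold change was -1.84 (SE 0.173, edgeR adjusted p = 0.00260).

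Brca2, which acts on the cut-back ends, fell with a log2 fold change of -1.23 (edgeR adjusted p = 0.0257), and Palb2, which joins BRCA1 to BRCA2, had one of -1.03 that was not called (adjusted p = 0.0518). Palb2 had the lowest level per length of the 39 genes in WT, at 1.61 ± 0.253 FPKM (SD, n = 3), and its adjusted p was 0.0183 without KO replicate 1 and 0.0355 without KO replicate 3. Brca2 was no longer called without WT replicate 1, 2 or 3 (edgeR adjusted p = 0.0785, 0.0875 and 0.0769).

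Rad51b, Rad51c, Rad51d, Xrcc2 and Xrcc3, whose products work together in 2 complexes of recombination, had log2 fold changes from -2.02 to 0.054. Rad51c (chromosome 11, 87376645 to 87404954, minus strand) held 10.8, 8.78 and 9.54 CPM in WT and 3.15, 2.94 and 1.05 CPM in KO, the last from 22 counts. It fell most of the 16 genes, with a log2 fold change of -2.02 (SE 0.380, edgeR adjusted p = 0.0110, and 0.0513 without WT replicate 3). Xrcc2 (chromosome 5, 25689812 to 25705825, minus strand) held 9.41, 8.78 and 10.8 CPM in WT and 4.53, 5.37 and 4.05 CPM in KO. All KO libraries of Xrcc2 lay in a narrow range below WT, with a log2 fold change of -1.05 (SE 0.167, edgeR adjusted p = 0.00737). Rad51b fell with a log2 fold change of -1.33 at 2.77 CPM in WT, and Xrcc3 with one of -0.71. Without WT replicate 3 neither was called (edgeR adjusted p = 0.0908 and 0.0587), and Rad51b was also not called without WT replicate 2 or KO replicate 1 or 2 (0.0882, 0.0610 and 0.0663).

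Rad51d (chromosome 11, 82876434 to 82890614, minus strand), whose product binds XRCC2, held 29.2, 28.3 and 27.9 CPM in WT and 29.5, 26.4 and 32.7 CPM in KO. The genotypes overlapped, and the log2 fold change of 0.054 (SE 0.0995, edgeR adjusted p = 0.701) was the smallest in size of the group. It turned to -0.025 without KO replicate 3 and -0.0063 with library size alone as the scaling. The length deposited for the row of Rad51d is 5299 bases against 3714 in the union of its GENCODE M21 exons, so which transcripts the row counts was not tested.

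Of the enzymes that work on the DNA itself, Exo1 (chromosome 1, 175880581 to 175913489, plus strand), an exonuclease that lengthens the cut-back end, held 18.5, 20.9 and 20.8 CPM in WT and 7.59, 7.36 and 4.24 CPM in KO. KO replicates 1 and 2 lay close together and KO replicate 3 was lower, with a log2 fold change of -1.65 (SE 0.222, edgeR adjusted p = 0.00495). Rad54l, a DNA motor protein of recombination, and Blm, a helicase that dissolves joined chromatids, had log2 fold changes of -1.82 and -1.36 (adjusted p = 0.0226 and 0.0270). In KO replicate 3 Rad54l was at 1.33 CPM against 12.9 ± 0.587 in WT (SD, n = 3). Both calls were lost without WT replicate 1, 2 or 3 or KO replicate 2, with adjusted p-values from 0.0518 to 0.0834 for Rad54l and from 0.0546 to 0.0929 for Blm.

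The genes that sense and first cut the ends moved less. Mre11a, the nuclease of the MRN complex, fell with a log2 fold change of -0.63 (edgeR adjusted p = 0.0141), and Rbbp8, which encodes its cofactor CtIP, with one of -0.55 (adjusted p = 0.00855). Without WT replicate 2 or 3 the adjusted p of Mre11a was 0.0601 or 0.0578. The other MRN subunits, Nbn and Rad50, were not called (log2 fold changes -0.33 and -0.24, adjusted p = 0.0868 and 0.220).

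In the Fanconi group the ubiquitinated pair fell together. Fanci (chromosome 7, 79391929 to 79450264, plus strand) held 13.2, 12.5 and 13.5 CPM in WT and 3.91, 4.08 and 1.48 CPM in KO. KO replicate 3 held 31 counts, and the log2 fold change of -2.05 was the lowest of the 39 genes (SE 0.349, edgeR adjusted p = 0.00849). Fancd2 (chromosome 6, 113531682 to 113597017, plus strand) held 19.8, 20.6 and 18.2 CPM in WT and 6.16, 7.08 and 2.67 CPM in KO. The libraries had the same order of genotypes as for Fanci, with a log2 fold change of -1.88 (SE 0.324, edgeR adjusted p = 0.00873). Exons of Polg lie on the other strand over those of Fanci, and exons of Fancd2os over those of Fancd2, and whether the counting used strand is not given in the sources used here.

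Brip1 (chromosome 11, 86058138 to 86201193, minus strand), a helicase that binds BRCA1, held 12.0, 13.2 and 11.1 CPM in WT and 5.30, 4.08 and 2.38 CPM in KO. The KO libraries were spread over a range of more than 2 CPM, all below WT, with a log2 fold change of -1.62 (SE 0.279, edgeR adjusted p = 0.00865). Of the core complex, Fancl, its ubiquitin ligase subunit, and Fancb fell with log2 fold changes of -0.998 and -1.04 (adjusted p = 0.0116 and 0.0306), and so did Fancm, the translocase that brings the complex to DNA, with -0.81 (adjusted p = 0.0201). Fancb and Fancm were not called without WT replicate 1, 2 or 3 (adjusted p 0.0807, 0.102 and 0.101 for Fancb and 0.0585, 0.0784 and 0.0711 for Fancm), nor was Fancb without KO replicate 2 (0.0725).

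The core complex subunits Fancg and Fancc were not called. Fancg had a log2 fold change of -0.46 (edgeR adjusted p = 0.0759). Fancc (chromosome 13, 63285043 to 63497278, minus strand) held 6.09, 7.22 and 8.16 CPM in WT and 4.82, 6.65 and 5.57 CPM in KO. Its genotypes overlapped, with the smallest log2 fold change of the group, -0.33 (SE 0.190, edgeR adjusted p = 0.214).

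In checkpoint signalling the mediators fell and the 2 apical kinases were not called. Clspn (chromosome 4, 126556935 to 126593903, plus strand), whose product claspin brings CHEK1 to ATR, held 34.0, 31.2 and 33.4 CPM in WT and 15.2, 10.5 and 5.10 CPM in KO. All KO libraries lay under the lowest WT library by more than 2-fold, with a log2 fold change of -1.68 (SE 0.347, edgeR adjusted p = 0.0147). Without WT replicate 1, 2 or 3 the adjusted p was 0.0529, 0.0542 or 0.0607. Mdc1 (chromosome 17, 35841515 to 35859670, plus strand), a scaffold on marked chromatin at breaks, held 85.5, 79.2 and 79.3 CPM in WT and 44.7, 45.2 and 26.8 CPM in KO. Its log2 fold change was -1.06 (SE 0.197, edgeR adjusted p = 0.0107), with KO replicates 1 and 2 close together.

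Topbp1, the activator of ATR, and Chek2, the kinase under ATM, fell with log2 fold changes of -0.95 and -0.59 (edgeR adjusted p = 0.0256 and 0.00969). Topbp1 was not called without WT replicate 1, 2 or 3 (adjusted p = 0.0769, 0.0826 and 0.0854). Atr had a log2 fold change of -0.50 (adjusted p = 0.0676), and one of -0.32 (adjusted p = 0.00896) without KO replicate 3. Atm (chromosome 9, 53439149 to 53536740, minus strand) held 81.1, 83.3 and 77.3 CPM in WT and 85.2, 85.7 and 47.8 CPM in KO. In CPM, KO replicates 1 and 2 were above every WT library and KO replicate 3 was below. The log2 fold change of -0.14 (SE 0.216, edgeR adjusted p = 0.627) was the smallest in size of its group. It turned to 0.086 without KO replicate 3. In FPKM all KO libraries lay inside the WT range, with 8.641, 8.023 and 9.685 in WT and 8.759, 8.645 and 8.621 in KO. The deposited length of the Atm row is 12380 bases against 10338 in the union of its GENCODE M21 exons. Which transcripts that row counts was not tested.

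Chek1 and Lig4, the other genes with a positive log2 fold change, are described because of their values. Chek1 (chromosome 9, 36708482 to 36727065, minus strand), the kinase under ATR, held 284, 285 and 284 CPM in WT and 343, 344 and 265 CPM in KO. Its log2 fold change was 0.16 (SE 0.111, edgeR adjusted p = 0.302), and 0.27 (adjusted p = 0.00105) without KO replicate 3. At 90.7 ± 14.1 FPKM (SD, n = 3) it had the highest level per length of the 39 genes in WT. The deposited length of its row is 6431 bases against 4635 in the union of its GENCODE M21 exons. The neighbouring gene Stt3a, on the same strand 2278 bases away, has no row of its own in the count table, and what the row of Chek1 counts was not tested.

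Of end joining, the Ku subunits, which bind the ends, both fell by less than 0.5 on the log2 scale. Xrcc5 (chromosome 1, 72307421 to 72394952, plus strand), which encodes Ku80, held 42.3, 46.8 and 47.6 CPM in WT and 37.7, 33.3 and 27.7 CPM in KO. Xrcc6 (chromosome 15, 81987835 to 82040085, plus strand), which encodes Ku70, held 53.0, 53.9 and 52.7 CPM in WT and 43.2, 41.9 and 31.2 CPM in KO. The genotypes did not overlap in either gene, and KO replicate 3 was the lowest in both. The log2 fold changes were -0.47 and -0.46 (SE 0.125 and 0.129, edgeR adjusted p = 0.0300 and 0.0361). Both calls were lost without KO replicate 2 or WT replicate 1, 2 or 3, with adjusted p-values from 0.0654 to 0.106 for Xrcc5 and from 0.0540 to 0.109 for Xrcc6.

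The other 5 end joining genes were not called. Rif1 and Trp53bp1, which keep ends from being cut back, had log2 fold changes of -0.86 and -0.23 (edgeR adjusted p = 0.0558 and 0.266). Without KO replicate 3 those of Rif1 and of Prkdc, the catalytic subunit of DNA-PK, were -0.57 and -0.22 (adjusted p = 0.000143 and 0.0320), against -0.86 and -0.49 with all libraries. Xrcc4 (chromosome 13, 89774027 to 90089608, minus strand), a scaffold of the ligase, held 4.37, 7.03 and 5.84 CPM in WT and 4.68, 4.70 and 5.72 CPM in KO. The KO libraries lay inside the WT range, with a log2 fold change of -0.19 (SE 0.220, edgeR adjusted p = 0.525), the smallest in size of its group.

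Lig4 (chromosome 8, 9969049 to 9977686, minus strand), the ligase that XRCC4 stabilises, held 14.6, 18.1 and 15.9 CPM in WT and 24.1, 24.8 and 17.7 CPM in KO. KO replicates 1 and 2 lay above all WT libraries and KO replicate 3 lay within them. The log2 fold change was 0.45 (SE 0.159, edgeR adjusted p = 0.0670), and without KO replicate 3 it was 0.60 (adjusted p = 0.00109). With DESeq2 the adjusted p of Lig4 was 0.0400. Over all fits that left out a library, its adjusted p ranged from 0.00109 to 0.195.

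Msh6 (chromosome 17, 87975062 to 87990892, plus strand), which recognises mismatches, was the only mismatch repair gene with a row. It held 92.7, 95.3 and 89.8 CPM in WT and 85.9, 81.3 and 46.7 CPM in KO. KO replicates 1 and 2 lay just under WT and KO replicate 3 far under it, with a log2 fold change of -0.38 (SE 0.217, edgeR adjusted p = 0.217) that was -0.15 without KO replicate 3.

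Per length, 9 of the 39 genes were above 10 FPKM in WT and 6 in KO, and 1 was under 2 FPKM in WT and 13 in KO. The median was 5.46 FPKM in WT and 3.61 FPKM in KO. Below Chek1, the highest means in WT were 29.6 ± 0.368 FPKM for Topbp1, 22.2 ± 0.377 for Xrcc6, 21.7 ± 0.632 for Msh6 and 20.0 ± 1.40 for Xrcc5 (SD, n = 3 each). Xrcc6 overlapped Msh6 in range, and Msh6 overlapped Xrcc5. In 32 of 38 pairs of neighbours in this order the WT ranges overlapped, so the order is resolved only at a few steps. Of the recombination and Fanconi genes called lower, Brca1 held 4.80 ± 0.174 FPKM, Fanci 3.01 ± 0.137 and Bard1 2.43 ± 0.127 in WT. Exo1, also called, lay above the WT median at 6.45 ± 1.25 FPKM. Genes that were not called could be low too, such as Fancc at 3.1 ± 0.77 FPKM and Lig4 at 4.40 ± 0.58.

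Markers of proliferation moved with these genes. The 15 markers, among them Mki67, Cdk1 and Mcm2, summed to 1902, 1867 and 1860 CPM in WT and 835, 732 and 326 CPM in KO replicates 1 to 3. Of these 14 were called lower and 0 higher, with a median log2 fold change of -1.43. Of the 39 repair genes, 9 had a lower log2 fold change than that median. As a share of the marker sum in the same library, 4 of the repair genes (Rad51c, Brca1, Fanci and Fancd2) were lower in all KO than in all WT libraries, 25 were higher and 10 overlapped. The sum itself fell in KO, so a gene that fell less than the sum, or not at all, tends to come out higher. These shares were not computed over all genes, so the counts are not a result about repair genes. Brca1 was 1.71%, 1.83% and 1.90% of the sum in WT and 1.55%, 1.47% and 1.45% in KO, whereas Xrcc6 was 2.78%, 2.89% and 2.83% in WT and 5.17%, 5.73% and 9.59% in KO. The part of proliferation in the falls was not tested. In these bulk samples fewer cells that transcribe a gene and less RNA per cell cannot be told apart.

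Gene length moved with the distance of KO replicate 3 from the other KO libraries. The 7 repair genes with a deposited length over 8000 bases (Atm, Prkdc, Brca2, Rif1, Trp53bp1, Fancm and Atr) were all lowest in KO replicate 3 among the KO libraries, with a median difference of -0.84 on the log2 CPM scale from the mean of KO replicates 1 and 2. The 8 genes under 3000 bases had a median of -0.14, and KO replicate 3 was the lowest KO library in 5 of them. Over all genes with more than 60 counts, the medians were -0.29 over 8000 bases (1083 genes) and 0.12 under 3000 bases (5477 genes). KO replicate 3 lay below both other KO libraries in 70.6% and 31.2% of these genes. Between KO replicates 1 and 2 and WT, the medians in these length ranges were 0.061 and -0.032 over all genes and -0.32 and -0.66 in the repair genes. Across the 39 genes Spearman's rho of length with the first difference was -0.54 and with the second 0.054, and the points share libraries. With a loess offset for gene length in the fit, 27 genes were lower and 2, Chek1 and Lig4, were higher, beside 16.8% of all genes lower and 2553 of 13386 higher.

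**Figure D4:**
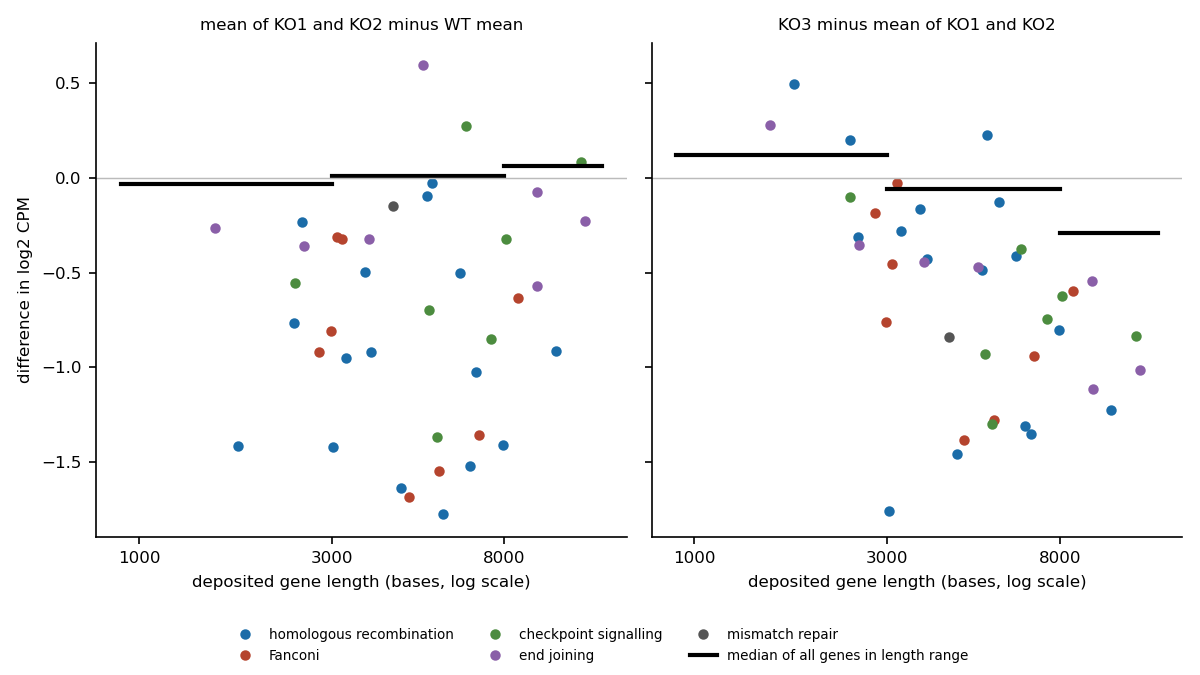
Difference in log2 CPM against deposited gene length (log scale) for the 39 genes, left for the mean of KO replicates 1 and 2 minus the WT mean and right for KO replicate 3 minus the mean of KO replicates 1 and 2. Black lines are medians of all genes under 3000, from 3000 to 8000 and over 8000 bases, which on the right step from 0.12 to -0.29, and all 7 repair genes over 8000 bases lie below the last line there.

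Another 80 genes of the same pathways, listed by role, had a row. Of these 36 were lower, 2 higher and 42 not called at an adjusted p under 0.05, beside 16.6% of all genes lower and 16.4% higher, with a median log2 fold change of -0.35. The genes lower were 14 of 29 in homologous recombination, 5 of 17 in the Fanconi pathway, 9 of 15 in checkpoint signalling, 4 of 12 in end joining and 4 of 7 in mismatch repair. The lowest 3 were Cdc25c, a phosphatase that starts mitosis (log2 fold change -1.87, edgeR adjusted p = 0.0295), Rmi2, a partner of BLM (-1.82, adjusted p = 0.0141), and Rad51ap1, which stimulates strand invasion (-1.75, adjusted p = 0.00473).

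The 2 genes that rose encode single-strand DNA binding proteins of the SOSS complex. Nabp1 held 17.2, 12.1 and 13.1 CPM in WT and 33.9, 43.3 and 34.1 CPM in KO, with a log2 fold change of 1.39 (SE 0.170, edgeR adjusted p = 0.00388). Nabp2 held 32.0, 31.5 and 32.6 CPM in WT and 37.9, 40.8 and 53.8 CPM in KO, with a log2 fold change of 0.46 (SE 0.137, edgeR adjusted p = 0.0416). The KO libraries of both lay above WT.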

How the data were processed

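Poly(A) RNA libraries of 6 cultures were sequenced by the authors and aligned to GRCm38/mm10 with HISAT2 2.1.0, per the submitters' processing notes. The authors deposited raw counts per gene with a gene length in bases, and FPKM values from Cufflinks 2.1.1 for 12633 genes. The counting program, its annotation and its use of strand are not given in the sources used here. The columns of the authors' own comparison (log2 fold change and FDR) were not used.

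Counts were fitted in edgeR 4.0.16 (R 4.3.3) with TMM factors, filterByExpr and the quasi-likelihood test over all genes, without covariates, with Benjamini-Hochberg adjustment. The SE is the ratio of the log2 fold change to the root of F. CPM use TMM-scaled library sizes, and log2 CPM a prior count of 2. All genes of the list are named. Values by library are given for genes past the thresholds of the study, the 2 called genes with the lowest log2 fold change and the gene with the smallest one in size in each group, and for Chek1 and Lig4, chosen after their values were seen. Of the other repair genes, the 3 lowest and up to 3 highest called are named. The genes, lists and motifs were chosen with earlier results of these data known. Alternatives were RLE factors, library size only, DESeq2 1.42.0, the exact test, 2 other filters, the replicate number as a block and each library left out. Offsets for length and GC content (loess, span 0.5) and limma 3.58.1 on log2(FPKM + 1) were added after seeing the data. The fits were tested on simulated data.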

Additional observations from a re-analysis of the deposited data

How the results depend on the processing

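Over the 16 alternatives, the count of 24 genes lower in KO at an adjusted p under 0.05 ranged from 11 to 28 with a library left out, beside 5.17% to 24.2% of all genes, and was 21 to 27 in the others, beside 11.1% (replicate block) to 20.1% (library size only). The count of 0 genes higher was 0 to 2 with a library left out. Beside it, 694 of 13591 genes (without WT replicate 3) to 3230 of 13529 (without KO replicate 3) were higher. It was 1 with DESeq2, 2 with the length offset and 1 with the GC offset, beside 2605, 2553 and 2417 of 13386 genes. By the thresholds of the study, the 7 genes lower became 15 with DESeq2, 15 with the exact test, 10 with library size only and 0 with the replicate block, and 0 to 11 with a library left out. The share of all genes by these thresholds was computed in the main fit only. All 7 kept an adjusted p under 0.05 in every alternative, which is not independent support because they were chosen in these libraries at a stricter threshold. Of the 24 genes called, 11 were called in all 6 fits that left out a library. Fits with fewer libraries have fewer degrees of freedom, and the cause of the other differences was not tested. Log2 fold changes that turned direction were those of Rad51d (-0.0063 with library size only, -0.094 with limma on FPKM, and from -0.025 without KO replicate 3 to 0.13 without KO replicate 2) and of Atm (from -0.27 without KO replicate 2 to 0.086 without KO replicate 3). With the replicate block 21 genes were lower and 0 higher. Same-numbered WT and KO libraries did not deviate together (correlations -0.066, 0.037 and 0.011), and not every library correlated best with its own number, so the numbers were not taken to pair the samples. The lowest level of Rad51c rests on 22 counts, and the smallest change detectable at such counts was not tested.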
